A study of Mus musculus with 6 samples.

Results

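The cytosolic and mitochondrial heat shock genes described here are 10 chaperone genes found by Ensembl identifier among 37991 gene rows of read counts from Nestin-GFP-positive cells of newborn mouse skin. They were selected on their measured counts, because Hspa1a, Hspa1b and Hsph1 were lower in mutant cells than in control cells, so the mutant and control values of all 10 are given as a description and are not tested. Nestin-GFP is a fluorescent reporter that marks cells in which the regulatory sequence of the Nestin gene is active, among them pericytes, the cells that wrap small vessels. The cells were collected from dermis, together with the white fat that adheres to it, of pups at 3 days of age, after an overnight step in cold trypsin and a warm collagenase digestion. The 3 control mice carried the reporter alone (Nes-GFP). Nes-Cre acts wherever the Nestin sequence that drives it is or was active, which is not limited to pericytes. The 3 mutant mice carried the reporter, the recombinase transgene Nes-Cre and 1 Pdgfra allele that encodes the constitutively active change D842V, written as PDGFRα+/[S]D842V in the labels, with a prefix "[S]" whose meaning the sources used here do not give. The controls as labelled lack Nes-Cre, so the recombinase and the allele cannot be told apart.

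Heat shock proteins are chaperones that bind unfolded or newly made proteins and help them fold, assemble or be destroyed. Hsp70 proteins work in cycles with J-domain partners and exchange factors, Hsp90 proteins finish the folding of kinases and receptors, small heat shock proteins hold unfolded chains, and the chaperonin Hspd1 with its lid Hspe1 folds proteins inside mitochondria. Some of these genes are expressed in all cells at all times, while others are switched on by heat or other damage to proteins through the transcription factor Hsf1, which binds DNA elements built from inverted repeats of GAA. As a working division, the heat-inducible genes were taken to be Hspa1a, Hspa1b, Hsph1, Dnajb1, Hspb1 and Hsp90aa1. The constitutive genes were taken to be Hspa8, Hsp90ab1, Hspd1 and Hspe1. Windows at the start sites of Hspd1 and Hspe1 also hold an exact match to such an element, described below, so their place in the constitutive class is uncertain.

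The promoter stretches below show exact or partial letter matches to the heat shock element near the start sites of members on both sides of that division. A window of 250 bases before to 50 bases after a start site was in hand for 7 of the 10 genes, from RefSeq on build GRCm38.p6, and none for Hspa8, Hsp90aa1 and Hsp90ab1. The counts were made on mm9, so these coordinates belong to the sequences only. Capitals span matches to alternating GAA and TTC units set 2 bases apart, either 2 units without error or 3 units with at most 1 letter off. Each stretch is written 5′ to 3′ on the strand of its gene and lies upstream of the start. The first is Hspa1a (chr17:34972157-34972406, minus strand), the second Hspe1 (chr1:55088038-55088097, plus strand), the third Hspb1 (chr5:135887789-135887838, plus strand) and the fourth Hsph1 (chr5:149636337-149636406, minus strand).
Hspa1a: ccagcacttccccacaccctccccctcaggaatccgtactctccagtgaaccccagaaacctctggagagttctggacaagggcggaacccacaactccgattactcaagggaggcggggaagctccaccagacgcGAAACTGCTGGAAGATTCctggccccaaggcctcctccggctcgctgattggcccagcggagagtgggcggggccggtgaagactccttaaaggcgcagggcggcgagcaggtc
Hspe1: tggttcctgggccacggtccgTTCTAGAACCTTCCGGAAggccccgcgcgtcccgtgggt
Hspb1: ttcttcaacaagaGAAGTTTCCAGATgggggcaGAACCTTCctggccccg
Hsph1: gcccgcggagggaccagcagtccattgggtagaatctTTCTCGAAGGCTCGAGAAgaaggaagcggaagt

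An exact run of 3 units, GAANNTTCNNGAA or TTCNNGAANNTTC, was found in windows of 3 of the 7 genes, Hsph1, Hspd1 and Hspe1. Each form is the complement of the other, so both strands were covered. Such a run was present in 198 of 32851 promoter windows of the same length, 0.603%, and in 0.662% of genes with a window. Hspd1 and Hspe1 lie head to head, and their windows hold the same unbroken run of 4 units, which begins 89 bases before the Hspe1 start. Hsph1 has windows at 2 start sites. The exact run TTCTGGAAAGTTC begins at base 37 counted from 1 start and at base 16 from the other, inside the transcript. The Hsph1 stretch printed above lies before the first of these starts and holds 3 units with 1 letter off. Hspa1a and Hspa1b carry 2 exact units (GAAGATTC) that begin 104 bases before the start, within a longer run with 1 letter off. Exact pairs of units are common, with 15.1% of all windows and 17.0% of genes holding one against 6 of the 7 genes. Runs of 3 units with at most 1 letter off were found in 7.22% of windows and 8.15% of genes, against 6 of the 7. Dnajb1 had none of these matches in its windows. Over the 250 upstream bases the windows of Hspa1a and Hspa1b differed at 3 bases, C44T, T47C and T249G, counted from 1 at the far end of the window with the Hspa1a base first. These matches describe the letters of the windows and say nothing of whether a factor was bound.

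Gene counts per library ran from 11912469 to 18792939, and values below are CPM (reads of a gene scaled to a common library total) adjusted by TMM, an estimate of library size that is robust to a few strong genes. Each group is 3 mice per the labels' protocols, and the sources used here name no litter, strain or sequencing batch. The pericyte markers Rgs5 and Cspg4 were present in every library, at 139 to 405 CPM and 115 to 172 CPM. Neither was called, with log2 fold changes of -0.72 and -0.26. The 9 pericyte markers summed to 1243 to 1562 CPM in controls and 1198 to 1489 in mutants. By edgeR 2 of the 9 were higher, Kcnj8 (1.47) and Abcc9 (0.85), named after their values were seen, and 0 were lower. The labels name white fat as the source, and of the genes of mature fat cells Adipoq had between 5.29 and 61.8 CPM and Plin1 between 14.5 and 48.8 CPM. Markers of several other cell types moved with the genotype. Skeletal muscle markers summed to 43.2 to 61.3 CPM in controls and 119.9 to 185 in mutants (8 of 8 called higher by edgeR), endothelial markers to 134 to 163 and 232 to 317 CPM (5 of 7 higher), and keratinocyte markers to 326 to 582 and 721 to 875 CPM (3 of 5 higher). Adipocyte markers summed to 149 to 229 and 246 to 546 CPM (1 of 5 tested higher). That was Fabp4, named after its values were seen, and its call was lost without control replicate 1. Fabp4 made up most of each sum, at 112 to 157 CPM in controls and 196 to 285 in mutants. Adipoq and Plin1 overlapped between the groups, and Plin1 was the 1 tested marker with a log2 fold change below 0 (-0.15). Smooth muscle markers summed to 1031 to 1326 and 662 to 888 CPM (2 of 6 lower). Schwann cell markers summed to 160 to 187 and 115 to 148 CPM (1 of 5 lower), and immune markers to 98.1 to 227 and 134 to 165 CPM (0 of 7 higher or lower). Fibroblast markers had by far the largest sums, 68719 to 76569 CPM in controls and 56262 to 69808 in mutants, ranges that overlapped. Col1a1 alone had means of 41012 and 34356 CPM. Of the 6 fibroblast markers 1 was lower, Pdgfra, named after its values were seen. The part of these cells in the values below was not tested. In bulk samples, fewer cells of a type and less RNA per cell cannot be told apart.

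The stress-induced Hsp70 genes had the lowest mutant values relative to control of the 10. Hspa1a, which encodes the cytosolic Hsp70 that cells make after heat or other protein damage, had 133, 77.3 and 89.1 CPM in control replicates 1 to 3 and 30.2, 20.7 and 31.5 CPM in mutant replicates 1 to 3. Every mutant library lay below every control library, and control replicate 1 stood above the other controls. The means were 99.8 ± 29.3 and 27.5 ± 5.86 CPM (SD, n = 3 per group), with a log2 fold change of -1.86 (SE 0.27). Hspa1b, the neighbouring copy of the same gene, had 169, 94.1 and 117 CPM in controls and 26.2, 21.3 and 24.9 in mutants, again without overlap and again with control replicate 1 highest. Its log2 fold change was -2.40 (SE 0.24), about 5.26-fold lower in mutants. Without control replicate 1 the log2 fold changes were -1.61 for Hspa1a and -2.14 for Hspa1b.

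Reads of these copies are hard to assign. Of all 50-base stretches of the Hspa1a transcript in GENCODE M21, 60.3% also occur in Hspa1b or Hspa1l transcripts, and of those of Hspa1b, 62.3% also occur in Hspa1a. Reads listed as aligning to more than 1 place made up 5.06% to 5.79% of the reads in control files and 6.17% to 6.52% in mutant files, and the part of this difference in the Hspa1a and Hspa1b counts was not tested. With both rows summed into 1 before the fit, the log2 fold change was -2.14. The log2 ratio of Hspa1b to Hspa1a was 0.35, 0.28 and 0.40 in controls and -0.21, 0.04 and -0.34 in mutants, so Hspa1b was the higher row in every control and the lower row in 2 of 3 mutants.

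**Figure D1:**
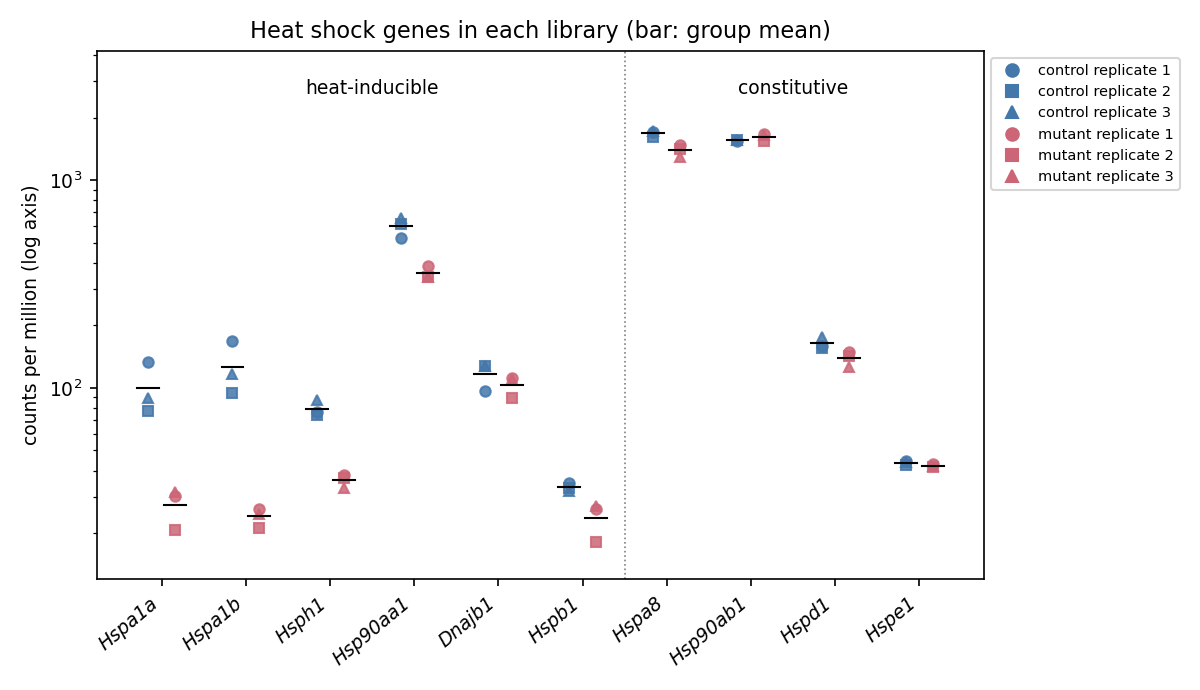
CPM of the 10 heat shock genes in each of the 6 libraries, on a log axis, with controls in blue, mutants in red, the replicate number as the symbol and a black bar for each group mean. Hspa1a, Hspa1b, Hsph1 and Hsp90aa1 show the widest gap between groups, while the groups overlap in Dnajb1, Hsp90ab1 and Hspe1.

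Hspa8, the constitutive Hsp70 (also called Hsc70), was the abundant member of the same family and differed far less. It had 1709, 1618 and 1729 CPM in controls and 1486, 1408 and 1290.1 in mutants. The groups did not overlap, yet the log2 fold change was only -0.27 (SE 0.09). Of the 50-base stretches of its transcript, 51.4% also occur in other genes, pseudogenes among them. The log2 ratio of Hspa1a plus Hspa1b to Hspa8 was -2.50, -3.24 and -3.07 in controls and -4.72, -5.07 and -4.52 in mutants, a difference of -1.83 between the group means.

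Hsph1, an Hsp110 protein that serves Hsp70 as an exchange factor, was lower with little spread. It had 76.3, 73.8 and 87.7 CPM in controls and 38.0, 37.1 and 32.9 in mutants. The lowest control was thus well above the highest mutant, and the log2 fold change was -1.14 (SE 0.09). None of the 50-base stretches of its longest transcript in GENCODE M21 occurs in another gene's annotated transcript, unlike those of the Hspa1 copies. Copies outside annotated transcripts were not searched. Control replicate 1, the highest library for Hspa1a and Hspa1b, was not the highest for Hsph1.

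Dnajb1, the J-domain partner that hands substrates to Hsp70 and is itself a classic heat-induced gene, had a smaller difference that rested on which controls were used. It had 96.8, 128 and 127 CPM in controls and 111, 89.6 and 109.9 in mutants. The ranges overlapped, with control replicate 1 below 2 of the mutant libraries, and the log2 fold change was -0.18 (SE 0.12). Without control replicate 1 it was -0.31, and the gene was then called lower by edgeR, as it was by the tool run in none of the other 11 alternatives that change the fit of all genes. The inducible partners Hspa1a and Dnajb1 thus ordered the control libraries in opposite ways: replicate 1 was the highest control for the first and the lowest for the second.

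The pair of cytosolic Hsp90 genes split by class. Hsp90aa1, the inducible form, had 525, 613 and 659 CPM in controls and 385, 343 and 344 in mutants, without overlap and with a log2 fold change of -0.75 (SE 0.10). Hsp90ab1, the constitutive form, had 1553, 1566 and 1559.9 CPM in controls and 1661, 1547 and 1644 in mutants. Its groups overlapped and its log2 fold change was 0.05 (SE 0.08), the single value above 0 among the 10 genes. The log2 ratio of Hsp90aa1 to Hsp90ab1 ran from -1.56 to -1.24 in controls and from -2.26 to -2.11 in mutants. Of the 50-base stretches of Hsp90aa1, 58.5% also occur in other genes' transcripts, against 4.49% for Hsp90ab1.

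Hspb1, the small heat shock protein Hsp27 (Hsp25 in mice), had 34.9, 33.1 and 31.8 CPM in controls and 26.0, 18.1 and 27.1 in mutants. The groups did not overlap, mutant replicate 2 was the lowest library, and the log2 fold change was -0.48 (SE 0.13). The mitochondrial chaperonin gene Hspd1 had 159, 156 and 177 CPM in controls and 149, 142 and 126 in mutants, also without overlap, with a log2 fold change of -0.24 (SE 0.08). Its lid, Hspe1, had 44.6, 42.4 and 44.0 CPM in controls and 43.1, 41.7 and 41.9 in mutants, overlapping ranges with a log2 fold change of -0.05 (SE 0.07). The promoter matches are set beside these differences as a description, since this contrast chose the members. Of the 3 genes with an exact run of 3 units, Hspd1 and Hspe1 had -0.24 and -0.05 and Hsph1 had -1.14. Of those with a window but without such a run, Hspa1a and Hspa1b had -1.86 and -2.40, Hspb1 -0.48 and Dnajb1 -0.18. With exact pairs of units, 6 of the 7 genes had a match and Dnajb1 had none. A link between the matches and the differences was not tested.

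All 10 genes passed the filter on low counts. Under the rule applied to all genes, an edgeR adjusted p under 0.05, 6 of the 10 were lower (Hspa1a, Hspa1b, Hsph1, Hsp90aa1, Hspb1 and Hspa8), beside 9.13% of 15035 tested genes, and 0 were higher by edgeR, DESeq2 or limma-voom or at an unadjusted p under 0.05, beside 8.63% of tested genes higher by edgeR. The groups did not overlap, with mutants lower, in 7 of the 10, beside 18.6% of tested genes. Since this contrast chose the genes, nothing is read from these counts. Hspa1a, Hspa1b, Hsph1 and Hsp90aa1 kept their call with any 1 library left out. Hspb1 lost its call without any 1 control library, and Hspa8 did so too and also without mutant replicate 2 or 3, while Dnajb1 gained one without control replicate 1, so the number lower lay between 4 and 6. With no filter, where Hspd1 was called as well, it was 7. The median log2 fold change of the 10 was -0.38, against 0.01 over all tested genes.

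**Figure D2:**
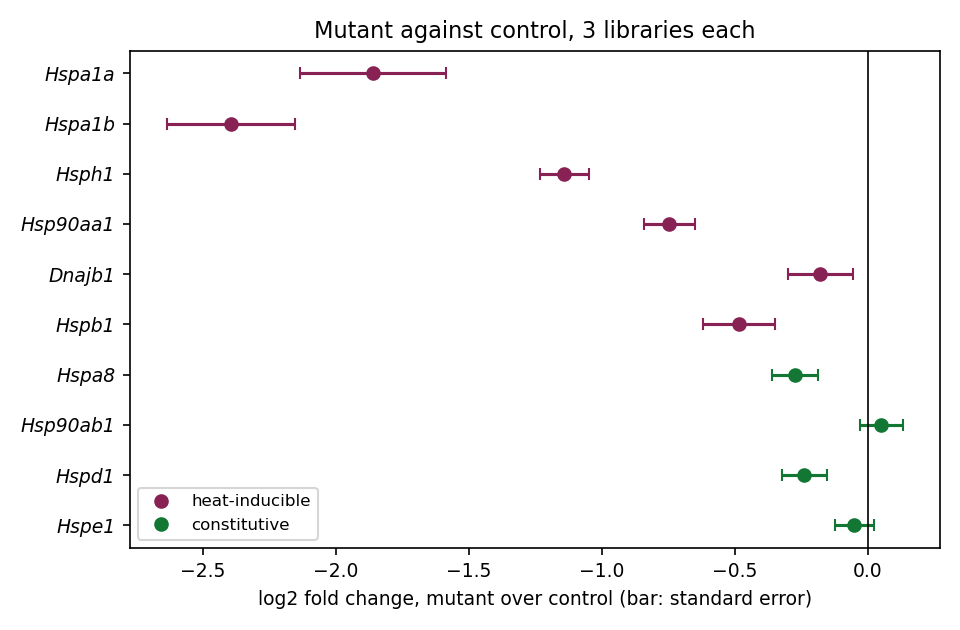
Log2 fold change of mutant over control for the 10 heat shock genes, each point from 3 libraries per group with its standard error, heat-inducible genes in purple and constitutive genes in green. The inducible genes run from -2.40 (Hspa1b) to -0.18 (Dnajb1) and the constitutive genes from -0.27 (Hspa8) to 0.05 (Hsp90ab1).

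The inducible class holds Hspa1a, Hspa1b and Hsph1, the genes for which the set was chosen, so a gap between the classes is in part fixed by that choice and is given as a description. The 6 inducible genes summed to 1035, 1019 and 1112 CPM in controls and to 617, 530.2 and 569.8 in mutants, a ratio of group means of 1.84. The 4 constitutive genes summed to 3465, 3382 and 3509 CPM in controls and to 3338, 3139 and 3102 in mutants, a ratio of 1.08. The log2 ratio of the inducible to the constitutive sum was -1.71 ± 0.05 in controls and -2.48 ± 0.07 in mutants (SD, n = 3 per group), with no overlap and a difference of -0.77. With Hspa1a, Hspa1b and Hsph1 left out of the inducible sum, an alternative added after the data were seen, the ratio was -2.21 ± 0.16 in controls and -2.72 ± 0.07 in mutants, still without overlap, and the difference was -0.51. Most of that remaining sum is Hsp90aa1. With all 6 inducible genes, and with Hspd1 and Hspe1 left out of the constitutive sum, the ratio was -1.62 ± 0.05 in controls and -2.40 ± 0.07 in mutants. The difference was then -0.78. The classes were not separate gene by gene, since the value of Dnajb1 lay within the range of the constitutive genes.

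Levels between genes were compared per kilobase of exon, as CPM divided by the length of all annotated exons of a gene in GENCODE M21. That length can exceed the longest transcript, as in Hspe1 with 1474 against 964 bases, and the order under transcript lengths was not tested. Shared stretches also limit the order. Of the 50-base stretches of Hspb1 51.6% and of Hspd1 44.8% occur in other genes' transcripts, against 8.20% for Hspe1 and 0.41% for Dnajb1. In controls Hsp90ab1 was highest at 520.02 ± 2.2, followed by Hspa8 at 392 ± 13.8, Hsp90aa1 at 152 ± 17.3 and Hspd1 at 62.0 ± 4.22 CPM per kilobase. Hspa1b (45.2 ± 13.7), Dnajb1 (36.6 ± 5.54), Hspa1a (33.6 ± 9.89) and Hspb1 (32.3 ± 1.53) came next on that scale, and from Hspd1 to Hspb1 each neighbour's range overlapped the next. Hspe1 (29.6 ± 0.80) and Hsph1 (10.9 ± 1.02) were last. In mutants the first 4 kept their order, while Hspa1a (9.26 ± 1.98) and Hspa1b (8.60 ± 0.91) lay below Dnajb1, Hspe1 and Hspb1, above Hsph1 at 4.95 ± 0.37 CPM per kilobase.

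The genes with the nearest profiles over the 6 libraries are given as a description. The distance used depends on the size of the fall, for which Hspa1a, Hspa1b and Hsph1 were chosen. Genes with a much smaller fall, other chaperones among them, could not lie near, so nothing is read from which genes did. By Euclidean distance between centred log2 CPM, over 10894 candidate genes, the nearest to Hspa1a plus Hspa1b were Gldn (distance 0.34), the basement membrane collagen gene Col4a6 (0.56), the fibrillar collagen gene Col11a1 (0.63), the BMP antagonist gene Grem1 (0.67) and Coch (0.69). Their log2 fold changes ran from -1.98 to -1.68. Gldn had 29.0, 14.9 and 19.6 CPM in controls and 6.71, 3.97 and 5.65 in mutants, with the same high control replicate 1. Nearest to Hsph1 were the potassium channel gene Kcnj2 (0.22), Pdgfra (0.26), St6gal2 (0.27), the Wnt ligand gene Wnt16 (0.30) and Thap2 (0.31). These had log2 fold changes of -1.28 to -1.04. Pdgfra, the gene that carries the mutant allele, had 857, 820.0 and 856 CPM in controls and 369, 345 and 359 in mutants. Distances among the members were smallest between Hspa8 and Hspd1 (0.11) and between Hsp90ab1 and Hspe1 (0.15), and the Hspa1 copies were 0.69 apart.

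The other chaperone genes came from lists of the Hsp70, Hsp90 and chaperonin machinery and were tested by edgeR over all genes, of which 8.63% rose, 9.13% fell and 17.8% were called in all. Of 7 further Hsp70 and Hsp110 genes 3 fell, 42.9%, and 1 did without control replicate 3. Hspa2, an Hsp70 best known from male germ cells, fell from 35.1 ± 3.96 to 18.2 ± 1.58 CPM (-0.94 on the log2 scale, edgeR adjusted p = 0.000302), and the Hsp110 genes Hspa4 (-0.31) and Hspa4l (-0.58) fell too. Among 12 further J-domain genes Dnaja1, a cytosolic partner of Hsp70, fell by 0.34 on the log2 scale and Dnajb12, an ER membrane member, rose from 35.3 ± 3.06 to 48.3 ± 0.66 CPM (0.45, edgeR adjusted p = 0.00448), and 10 were not called, so 16.7% were called. Of 9 exchange and triage factors 1 fell, 11.1%: Bag3, an Hsp70 co-chaperone that is itself induced by heat shock (-0.29). Without control replicate 3 the calls of Hspa4, Hspa4l, Dnaja1 and Bag3 were all lost, and each was also lost without at least 1 other library: mutant replicate 3 for Hspa4, Dnaja1 and Bag3, control replicate 2 for Hspa4l, Dnaja1 and Bag3, mutant replicate 1 for Hspa4l and Dnaja1, and mutant replicate 2 for Hspa4l and Bag3 (largest edgeR adjusted p 0.137, for Bag3). Without control replicate 1, 2 J-domain genes were lower.

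Of 14 Hsp90 co-chaperones 2 fell and 12 were not called, a called share of 14.3% against 17.8% of all tested genes. Chordc1, a heat-induced Hsp90 partner, fell from 32.7 ± 5.71 to 21.4 ± 1.32 CPM (-0.61 on the log2 scale, edgeR adjusted p = 0.00618), and Fkbp5, an Hsp90-binding immunophilin induced by glucocorticoids, fell by 0.34. The values of 13 of the 14 were below 0, with a median of -0.07. Fkbp5 lost its call when control replicate 1, control replicate 2 or mutant replicate 3 was left out (largest edgeR adjusted p 0.086), and only 1 co-chaperone was lower without control replicate 2, as without mutant replicate 3. Of 7 tested small heat shock genes 2 fell (28.6%), the lens crystallin genes Cryaa (1.91 ± 0.52 to 0.64 ± 0.19 CPM, -1.59) and Cryab, which is also abundant in muscle (45.3 ± 7.19 to 31.9 ± 4.03 CPM, -0.51). The summed markers of skeletal muscle were higher in mutants and those of smooth muscle lower, and the part of either in these values was not tested.

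The chaperonin and mitochondrial lists had called shares of 7.14% and 9.09%. Of 14 tested genes of the cytosolic chaperonin TRiC and of prefoldin 1 rose, the prefoldin subunit gene Pfdn6 (log2 fold change 0.33), with a list median of 0.05. Of 11 other mitochondrial chaperones and proteases 1 fell, Dnaja3, the mitochondrial J-domain partner (34.2 ± 1.85 to 26.0 ± 1.59 CPM, -0.40), with a list median of 0.06. Pfdn6 lost its call when any library but control replicate 1 and mutant replicate 2 was left out (largest edgeR adjusted p 0.0731), and without control replicate 1 the counts were 2 rises in the first list and 2 falls in the second.

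Transcripts of the regulators themselves were not called. Of 5 genes of the heat shock factor family and its binding partner, 3 passed the filter, and edgeR, DESeq2 and limma-voom each called 0 of them, with 1 lower at an unadjusted p under 0.05 in edgeR. Hsf1, the factor that drives the heat shock response, had 38.5 ± 2.38 CPM in controls and 36.8 ± 1.00 in mutants (log2 fold change -0.06, 95% interval -0.24 to 0.11, edgeR adjusted p = 0.627). Hsbp1, which binds heat shock factors, had 76.3 ± 4.96 and 78.5 ± 4.18 CPM (edgeR adjusted p = 0.758). Hsf1 is controlled largely at the level of its protein, which counts do not measure. Hsf2, outside the rule for named genes, had 27.8 ± 1.90 CPM in controls and 22.8 ± 2.53 in mutants, without overlap. Its log2 fold change was -0.29 (95% interval -0.52 to -0.06, edgeR adjusted p = 0.0747). Hsf2 was called lower without control replicate 1 and the number lower was also 1 without mutant replicate 2.

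**Figure D3:**
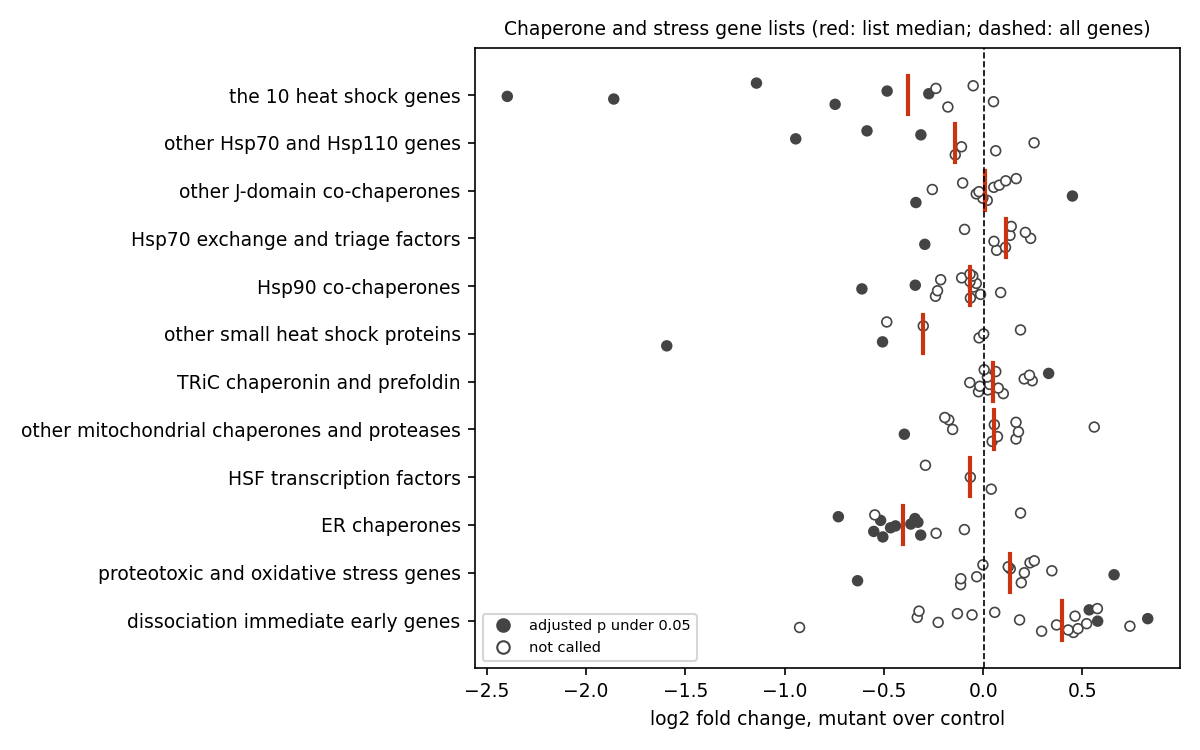
Log2 fold change of mutant over control for each tested gene of the 10 heat shock genes and of 11 related lists, with filled points for an edgeR adjusted p under 0.05, a red bar for the list median and a dashed line for the median of all genes (0.01). Medians of the 10 heat shock genes (-0.38) and of the ER chaperones (-0.40) lie left of the line and that of the immediate early genes (0.40) lies right of it.

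Many chaperones of the endoplasmic reticulum (ER) were lower. Of 14 genes 10 fell and 4 were not called, a share of 71.4% against 17.8% of all tested genes, with a median of -0.40. Pdia4, a disulfide isomerase, fell from 208 ± 4.73 to 145.5 ± 20.8 CPM (-0.52 on the log2 scale, edgeR adjusted p = 0.0042), Calr, the calcium-binding chaperone calreticulin, by 0.50 and Hsp90b1, the ER form of Hsp90, by 0.47. The falls numbered 6 without control replicate 2 or 3, 5 without mutant replicate 2 and 4 without mutant replicate 3. Among 13 genes of proteotoxic and oxidative stress, of which 15.4% were called, Hmox1, the heme oxygenase gene, rose from 32.0 ± 1.68 to 50.5 ± 7.14 CPM (0.66 on the log2 scale, edgeR adjusted p = 0.00173), and Dedd2 fell (-0.63, edgeR adjusted p = 0.0499), a call lost in 10 of 12 alternatives (adjusted p over all 12 between 0.0103 and 0.144), each library left out among them.

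Tissue dissociation is known to switch on both heat shock genes and immediate early genes, the first genes transcribed after a stimulus, so the latter were set beside the heat shock genes library by library. Of 20 such genes 3 rose and 17 were not called, a share of 15% against 8.63% of all tested genes higher and 17.8% called, with a median of 0.40. The AP-1 genes Jund (384 ± 69.9 to 682 ± 75.3 CPM, 0.83 on the log2 scale, edgeR adjusted p = 0.003) and Jun (1638 ± 291 to 2444 ± 216 CPM, 0.58) rose, as did Socs3, a cytokine feedback inhibitor (0.53). The list summed to 7963, 13290 and 13112 CPM in controls and to 15435, 14686 and 16321 in mutants. Control replicate 1 was thus the lowest library for immediate early genes and the highest for Hspa1a plus Hspa1b, at 302 CPM against 171 and 206 CPM in the other controls and 42.0 to 56.4 in mutants. Without control replicate 1, 6 immediate early genes rose and 4 fell (Egr2, Ier3, Klf6 and Nr4a1, outside the rule for named genes), with a median of 0.14. Control replicate 1 stood apart in cell markers too. Its immune markers summed to 227 CPM, against 98.1 and 128 in the other controls, and its smooth muscle markers to 1326 against 1031 and 1035. These and its sums of pericyte, fibroblast and Schwann cell markers were the highest of all libraries. Its sums of adipocyte, skeletal muscle, endothelial and keratinocyte markers were the lowest. The part of the dissociation or of these cells in the heat shock values was not tested.

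**Figure D4:**
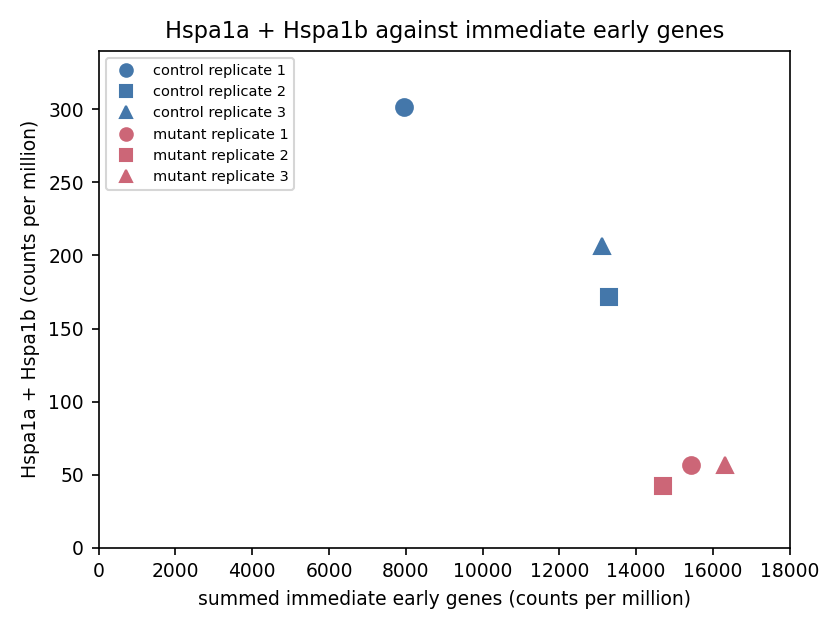
Summed CPM of Hspa1a and Hspa1b (vertical axis) against the sum of 20 immediate early genes (horizontal axis) in each of the 6 libraries. The mutant libraries lie at 42.0 to 56.4 CPM of Hspa1a plus Hspa1b with the higher immediate early sums, and control replicate 1 lies at 302 CPM with the lowest sum.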

How the data were processed

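Reads per gene were counted by the authors, who deposited 1 file of whole-number counts per library. The submitters' processing notes list mm9, HTSeq 0.5.3, TopHat2 2.0.4, cutadapt 1.1, DESeq2 and FastQC, without saying what each did. The sources used here do not state a strand setting, so reads of overlapping antisense genes cannot be told apart. The 5 rows that name no gene (36.9% to 41.7% of the reads listed) were left out. Symbols were matched by identifier for 32919 of 37991 rows. Of the lists, only Hspa14 matched no row.

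After TMM scaling and a filter on low values (filterByExpr, minimum count 10, minimum total 15), edgeR 4.0.16 (R 4.3.3) was run with its robust quasi-likelihood F test with group as the only term, with Benjamini-Hochberg adjustment over 15035 genes, called under 0.05. The code was run on simulated counts with the same dispersion for every gene and no outlying library. That run does not measure the error rate in these data. The SE is the log2 fold change divided by the square root of F. Replicates of a group differed by more than sampling noise (chi-square per degree of freedom 4.73 to 13.3).

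The members, lists and alternatives were chosen with earlier results of these data known. Named genes were the 10 members, up to 3 called genes per list in order of adjusted p (the 2 of highest CPM where none was called), the 5 nearest profiles among genes of at least 5 CPM, and the first 2 markers of a cell type. Identity was taken from transcripts in place of proteins.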

Additional observations from a re-analysis of the deposited data

How the results depend on the processing

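Alternatives were RLE scaling, library totals alone, DESeq2 1.42.0, limma-voom (limma 3.58.1), no filter, each library left out, a replicate block, and Hspa1a and Hspa1b summed. Every log2 fold change of the 10 genes kept its sign in the alternatives run. Each moved by less than 1 SD of log2 CPM between replicates, pooled over both groups. Leaving out 1 of 3 libraries can hardly move a mean that far, so nothing is read from this limit. With 1 library left out, all genes higher numbered 658 to 1199 (main 1298; 776 without control replicate 2, 679 without control replicate 3, 658 without mutant replicate 3) and lower 753 to 1500 (main 1372). In the same way the numbers lower were 0 to 1 for the HSF list, 1 to 3 for other Hsp70 genes, 0 to 2 for J-domain genes, 1 to 2 for Hsp90 co-chaperones, 0 to 1 for exchange and triage factors, 1 to 2 for other mitochondrial genes, 4 to 11 for ER chaperones, 0 for proteotoxic stress genes and 0 to 4 for immediate early genes. Numbers higher were 0 to 2 for TRiC and prefoldin and 3 to 6 for immediate early genes.

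With no filter, 1 HSF gene and 2 J-domain genes were lower. With DESeq2, 2 proteotoxic stress genes were higher and 0 lower, and 5 immediate early genes were higher and 1 lower. Proteotoxic stress genes lower were also 0 with library totals alone, limma-voom and the replicate block. The log2 ratio of inducible to constitutive sums differed by -1.03 without Hsp90aa1 and Hspb1, which leaves the genes chosen for their fall and Dnajb1, and by -0.51 without Hspa1a, Hspa1b and Hsph1, a setting added after seeing the data. Members with a promoter match numbered 3 for 3 exact units, 6 for 2 units, and 6 for 3 units with at most 1 letter off. The last setting was chosen after seeing the data. The shares of all genes with a window were 0.662%, 17.0% and 8.15%. The cause of these changes was not tested.

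Replicate numbers are those of the sample titles, while the names of the deposited files number the mutants 2, 3 and 4. Whether the numbers of the titles pair the samples could not be decided. Deviations of same-numbered libraries from their group means correlated at 0.11, -0.04 and -0.07 over genes. Control replicate 3 correlated best with mutant replicate 2 (0.14). Deviations within a group sum to 0, which balances such correlations near 0, so they cannot exclude a pairing. Under the numbers of the file names, which give only 2 shared numbers, the correlations were -0.05 and 0.14. The replicate block called 2767 genes against 2670, with 2 TRiC and prefoldin genes higher, 1 immediate early gene lower and 0 proteotoxic stress genes lower. Depth limits the lowest genes: a count of 0 allows up to 0.16 to 0.252 CPM (3 counts), for counting error only.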
